A study of Mus musculus with 2 samples.

Results

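Thbs1, Thbs2, Thbs3, Fn1 and the integrin genes Itga5, Itga11, Itgav, Itgb1, Itgb3 and Itgb5 encode matrix glycoproteins and the cell surface receptors that bind such proteins. These 10 genes were chosen by name, with earlier results of these data known, out of the 44291 genes in the expression files. All 10 reached a mean of at least 1 FPKM, as did 13401 genes in all. FPKM is the read number scaled by exon length and by the library's total of assigned reads, so that levels can be compared between genes. The cells were primary fibro-adipogenic progenitors (FAPs) of wild-type mice, mesenchymal cells of muscle from which adipocytes can form. One culture was labelled as treated with platelet-rich plasma (PRP) and the other with vehicle (control), and both were exposed to adipogenic induction medium, which was DMEM containing 20% FBS, IBMX at 0.5 mM, dexamethasone at 0.25 μM and insulin at 10 μg/ml. The study's text describes the sequenced cells as treated with exosomes from the PRP of young human donors, whereas the labels say PRP. The names PRP and control below are those of the labelled libraries. Its methods describe FAPs sorted from hind-limb muscle and C57BL/6 mice of 6 to 8 weeks, without saying that the sequenced cells came from those mice. The time in induction medium and the sex of the mice were not given for these libraries.

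Thrombospondins are secreted, calcium-binding glycoproteins that bridge matrix proteins, proteases and cell surface receptors. Thrombospondin-1 is also a major protein of platelet granules and an activator of latent TGF-β. Fibronectin forms fibrils that cells assemble through integrins, which are receptors made of 1 alpha and 1 beta subunit and which link the matrix to the actin cytoskeleton. Mesenchymal progenitors make much of this matrix, and fibronectin-rich matrix is known to be remodelled when such cells become adipocytes.

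There was 1 library per group, so each difference is between 2 libraries, no difference has a replicate check and no p-value is given. The FPKM values came out as whole reads for 93.8% of the genes with a value and a length, at 40120843 assigned reads in PRP and 34139741 in control. Each FPKM ratio is given with its exact Clopper-Pearson 95% interval on fragments, which covers counting error only. In bulk RNA, fewer cells of a type and less RNA per cell cannot be told apart. The FAP markers Pdgfra (19.8 FPKM in PRP and 28.0 in control) and Ly6a (59.9 and 66.4) were present, whereas Lum and Pi16 were below 0.1 FPKM in both.

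The transcripts of the matrix ligands were lower in PRP, while those of most of the integrin subunits differed less. All 4 ligand genes were lower, by FPKM ratios of 0.565 to 0.773, and 8 of the 10 genes in all, beside 49.1% of the 13401 genes. Of the 6 integrin genes, Itga11 was the furthest apart at a ratio of 0.321, Itgb5 was lower at 0.696, and Itgb1, Itgav, Itga5 and Itgb3 lay between 0.966 and 1.18. The summed FPKM of the 4 ligands was 816.5 in PRP and 1097 in control, a ratio of 0.744, and that of the 6 integrins was 335.0 and 367.8, a ratio of 0.911. The 10 genes held 0.336% of the summed FPKM of PRP and 0.432% of that of control. These sums are led by Fn1 and Thbs1 for the ligands and by Itgb1 for the integrins.

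**Figure D1:**
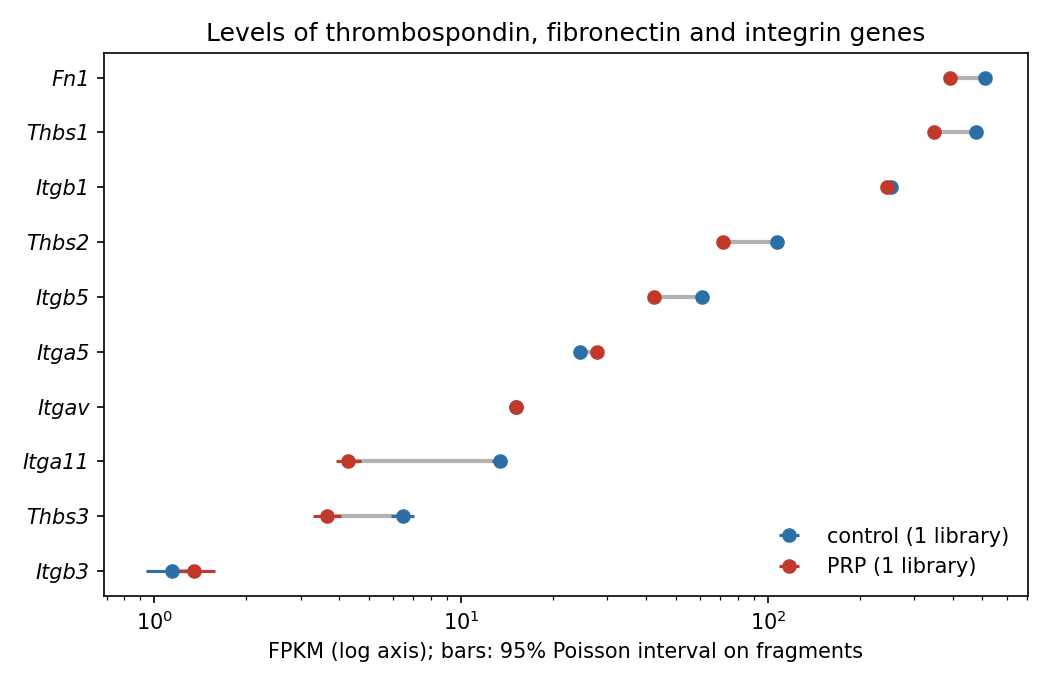
FPKM of each of the 10 genes on a log axis, with the control library in blue, the PRP library in red and bars for the 95% Poisson interval on fragments. The order from Fn1 (393.0 and 508.6 FPKM in PRP and control) down to Itgb3 (1.35 and 1.14) was the same in both libraries, with overlapping intervals only for Itga11 and Thbs3 in PRP, and the widest gap between libraries was that of Itga11.

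The study names the microRNAs let-7f-5p and miR-16-5p as exosome cargo, and these are shown because a microRNA can act on a transcript through a match to its seed in the 3′UTR. The mature mouse sequences, from RefSeq (GRCm38.p6), are given 5′ to 3′ with the seed, bases 2 to 8, in capitals.
mmu-let-7f-5p: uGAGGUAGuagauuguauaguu
mmu-miR-16-5p: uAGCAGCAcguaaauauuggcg
The matching sites are CTACCTC for let-7f-5p and TGCTGCT for miR-16-5p, on the transcript strand only, and the search covered the longest 3′UTR that GENCODE M21 gives a gene. Of 10287 genes with a mean of at least 1 FPKM and a 3′UTR, 9.85% held the let-7f-5p match and 24.6% the miR-16-5p match. Genes with the miR-16-5p match had a median 3′UTR of 2224 bases, against 1154 bases over all.

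Matches were found in 5 of the 10 genes, to miR-16-5p in Thbs1, Thbs2, Itgav and Itgb1 and to let-7f-5p in Itgb3. The share of all genes with either match was not computed, so the count of 5 has no share to be read against. By microRNA, the miR-16-5p match in Thbs1, Thbs2, Itgav and Itgb1 stands beside 24.6% of all genes with a 3′UTR. The let-7f-5p match in Itgb3 alone of the 10 is near the 9.85% of all such genes. The matches are shown in capitals within 26 bases of the transcript strand (mm10).
Thbs1, miR-16-5p, chr2:118125582-118125607, plus strand: tgctgcatttctgcaTGCTGCTggtg
Thbs2, miR-16-5p, chr17:14667300-14667325, minus strand: caagagcttccagccTGCTGCTggaa
Thbs2, miR-16-5p, chr17:14666617-14666642, minus strand: atcctttcctgtcccTGCTGCTagga
Itgav, miR-16-5p, chr2:83804139-83804164, plus strand: tagtgtggtctcagcTGCTGCTgctg
Itgb1, miR-16-5p, chr8:128732991-128733016, plus strand: tactgtaagctgtccTGCTGCTtgca
Itgb3, let-7f-5p, chr11:104668417-104668442, plus strand: ggtgcttgtgtgtatCTACCTCttcg
The Itgav site shown is the first of 7 overlapping matches in 1 run of repeats. The second Thbs2 site is followed by an A, which makes it an 8-base match. Thbs3, Fn1, Itga5, Itga11 and Itgb5 held no match in these windows, and their ratios ran from 0.321 (Itga11) to 1.14 (Itga5). The 5 genes with a match had ratios from 0.671 (Thbs2) to 1.18 (Itgb3). Whether either microRNA acted on these transcripts was not tested. The 3′UTRs with a match ran from 1112 bases in Itgb1 to 3581 bases in Itgav. Those without ran from 253 bases in Thbs3 to 1283 bases in Itga11, so the genes with a match mostly had the longer 3′UTRs. A match is a description of the letters and not a functional site.

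Fn1, the gene of fibronectin (ENSMUSG00000026193, mm10 chromosome 1, 71585520 to 71653200, minus strand, 45 exon blocks), had the highest level of the 10 genes in both libraries. It was at 393.0 FPKM in PRP and 508.6 FPKM in control, from 184257 and 202889 reads. The lower library was PRP, at a ratio of 0.773 (0.766 to 0.780) and a log2 fold change of -0.37, where the log2 fold change is log2(PRP FPKM + 1) minus log2(control FPKM + 1). Of its 11685 exon bases, 292 (2.5%) overlap an antisense gene on the other strand, and whether reads were counted by strand is not given in the sources used here.

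Thbs1, which encodes thrombospondin-1 (ENSMUSG00000040152, chromosome 2, 118111876 to 118127133, plus strand, 22 exon blocks), came next. Its level was 348.2 FPKM in PRP and 475.4 FPKM in control, from 84841 and 98564 reads. This is a ratio of 0.732 (0.723 to 0.742) and a log2 fold change of -0.45. An opposite-strand long non-coding RNA gene shares 208 of its 6073 exon bases (3.42%). The level of Fn1 was 1.13 times that of Thbs1 in PRP and 1.07 times in control, so both genes were lower by a similar factor, although their ratio intervals did not overlap.

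Thbs2, which encodes the closely related trimeric thrombospondin-2, a matricellular protein of connective tissue (ENSMUSG00000023885, chromosome 17, 14665500 to 14694235, minus strand, 21 exon blocks), was at 71.6 FPKM in PRP and 106.8 FPKM in control. The reads numbered 20121 and 25527, and the ratio was 0.671 (0.653 to 0.689), with a log2 fold change of -0.57. Thbs3 encodes one of the pentameric thrombospondins, which lack the properdin-like repeats of the trimeric ones (ENSMUSG00000028047, chromosome 3, 89215180 to 89226837, plus strand, 20 exon blocks). It had 3.65 FPKM in PRP and 6.47 FPKM in control, from 707 and 1065 reads, and thus a ratio of 0.565 (0.492 to 0.647) and a log2 fold change of -0.68. The low level of Thbs3 makes its interval the widest of the 4 ligands, and 318 of its 4823 exon bases (6.59%) overlap Mtx1 on the other strand.

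The ligand genes thus differed in size as well as in level. The ratios of the 3 thrombospondin genes were lowest for Thbs3, then Thbs2, then Thbs1, and their intervals did not overlap one another. Thbs1 was 95.3 times as abundant as Thbs3 in PRP and 73.5 times in control. Within the family of 5, Thbs1 made up 78.1% of the summed FPKM in PRP and 76.5% in control, and Thbs2 made up 16.1% and 17.2%. The make-up of the family was therefore close in the libraries while its sum was lower in PRP, at 446.1 against 621.3 FPKM.

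Itga11 had the lowest ratio of the 10 genes. It encodes the alpha subunit that pairs with the Itgb1 product in a receptor for fibrillar collagen on mesenchymal cells (ENSMUSG00000032243, chromosome 9, 62677826 to 62783982, plus strand, 30 exon blocks). Its level was 4.29 FPKM in PRP and 13.4 FPKM in control, from 884 and 2344 reads. The ratio was 0.321 (0.287 to 0.358), which is 3.12 times as much in control as in PRP (2.79 to 3.48), and the log2 fold change was -1.44. Among the 13401 genes it was 29th from the lowest log2 fold change. No other gene of the 10 reached 2-fold on this scale, beside 0.828% of all genes that were at least 2-fold lower. With a pseudocount of 5 Itga11 was at -0.98 and no longer reached 2-fold.

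Itgb5, which encodes a beta subunit that pairs with the Itgav product and binds vitronectin (ENSMUSG00000022817, chromosome 16, 33829665 to 33949338, plus strand, 18 exon blocks), was at 42.5 FPKM in PRP and 61.1 FPKM in control. With 6059 and 7410 reads the ratio was 0.696 (0.663 to 0.730) and the log2 fold change -0.51. Its ratio interval overlapped those of Thbs2 and Thbs1.

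Itgb1, the gene of the beta subunit shared by most collagen, laminin and fibronectin receptors (ENSMUSG00000025809, chromosome 8, 128685654 to 128733200, plus strand, 17 exon blocks), had the highest level of the integrin genes. It was at 244.0 FPKM in PRP and 252.6 FPKM in control, from 39950 and 35196 reads. The ratio of 0.966 (0.946 to 0.986) lay outside counting error and was small, with a log2 fold change of -0.05. Itgav encodes the alpha subunit of the receptors for vitronectin and latent TGF-β (ENSMUSG00000027087, chromosome 2, 83724397 to 83806916, plus strand, 32 exon blocks), and its levels were 15.1 FPKM in both libraries. Its ratio was 0.995 (0.946 to 1.05), an interval that includes no difference. Of the 10744 exon bases of Itgav, 634 (5.90%) overlap a gene on the other strand.

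Itga5, which encodes the partner of the Itgb1 product in the classical fibronectin receptor (ENSMUSG00000000555, chromosome 15, 103344286 to 103366763, minus strand, 30 exon blocks), was the only one of the 10 genes to be higher in PRP beyond counting error. It had 27.7 FPKM in PRP and 24.4 FPKM in control, from 5492 and 4115 reads, a ratio of 1.14 (1.07 to 1.20) and a log2 fold change of 0.18. Itgb3, which encodes a beta subunit known from platelets, osteoclasts and angiogenic endothelium (ENSMUSG00000020689, chromosome 11, 104608000 to 104670476, plus strand, 16 exon blocks), was the lowest of the 10 genes at 1.35 FPKM in PRP and 1.14 FPKM in control. Its 320 and 230 reads gave a ratio of 1.18 (0.926 to 1.52), which was not distinguishable from 1 at this depth.

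**Figure D2:**
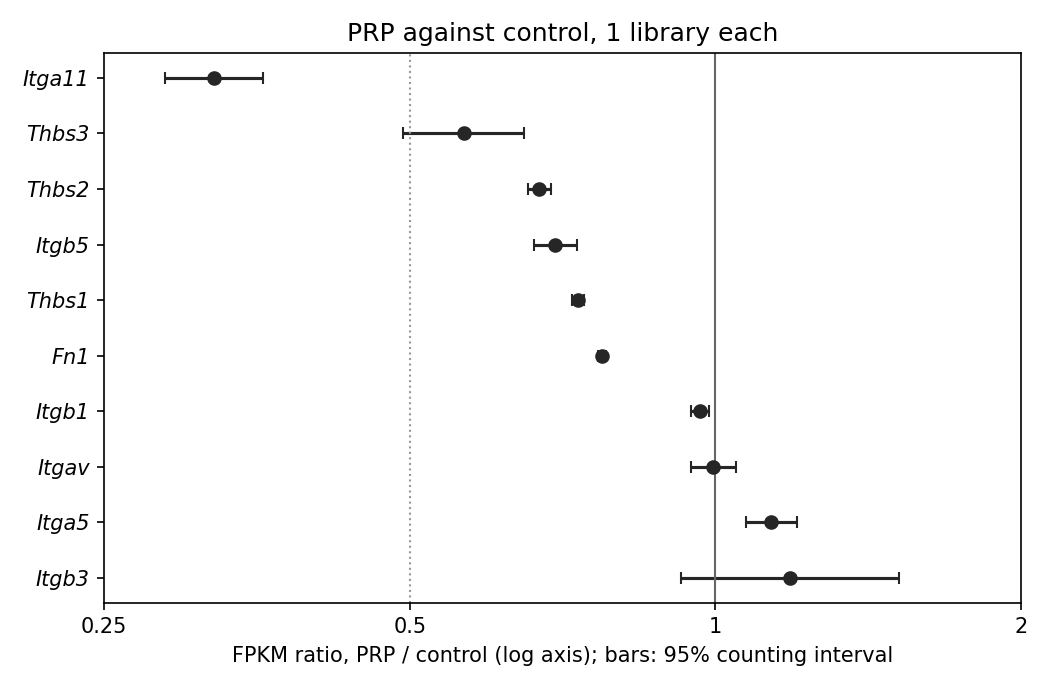
FPKM ratio of the PRP to the control library for each gene on a log axis, with bars for the 95% counting interval, a solid line at 1 and a dotted line at 0.5. Itga11 at 0.321 lies alone, Thbs3, Thbs2, Itgb5, Thbs1 and Fn1 lie between 0.565 and 0.773, and the bars of Itgav and Itgb3 cross 1.

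Read against all genes, 8 of the 10 genes were lower in PRP (49.1% of all) and 2 were higher (50.9% of all). The interval lay below 1 for 7 of the 10 genes (Thbs1, Thbs2, Thbs3, Fn1, Itga11, Itgb1 and Itgb5), beside 26.1% of the 12369 genes with whole reads, and above 1 for Itga5 alone, beside 26.1%. An interval narrows with abundance, and Fn1, Thbs1 and Itgb1 are among the abundant genes. On the log2(FPKM + 1) scale, on which all fold thresholds here are set, at least 1.5-fold lower were Itga11 and Thbs3, 2 of the 10, beside 4.57% of all genes, and none was 1.5-fold higher, beside 6.15%. Itga11 alone was at least 2-fold lower, beside 0.828%, and none was 2-fold higher, beside 2.00%. The median log2 fold change was -0.41 for the 10 genes and 0.01 for all genes. Since the 10 genes were chosen with earlier results of these data known, these shares are a description only.

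**Figure D3:**
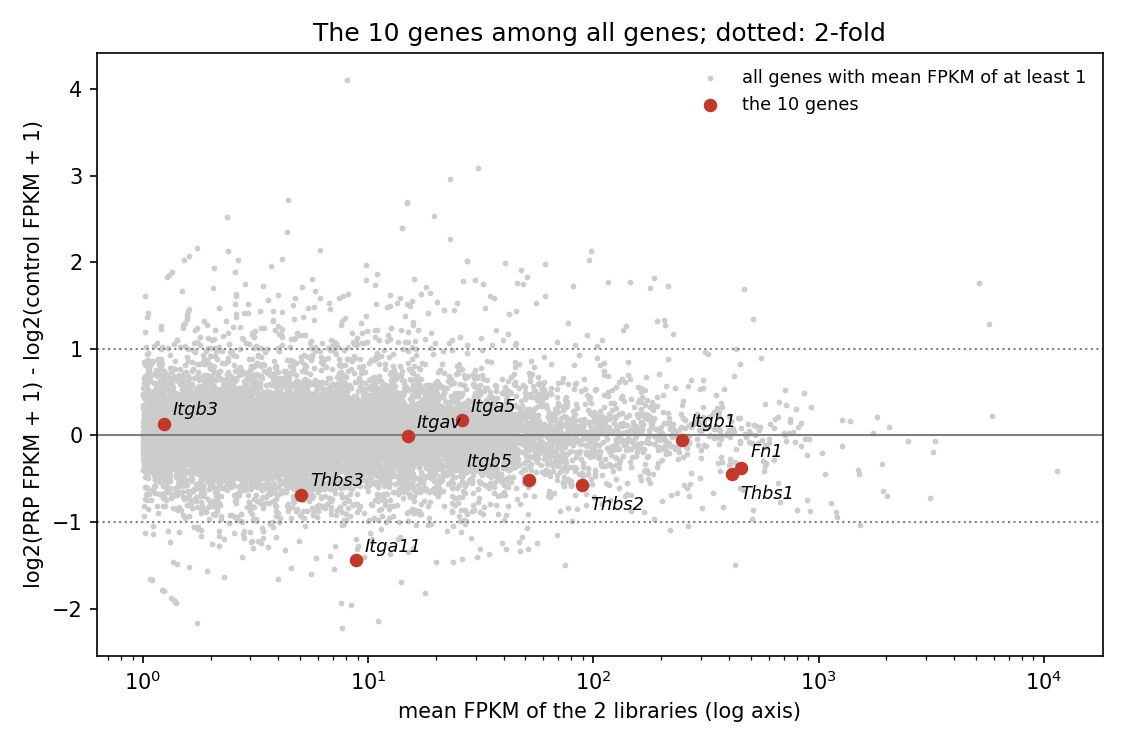
Log2 fold change against the mean FPKM of both libraries (log axis) for all 13401 genes in grey and the 10 genes in red, with dotted lines at 2-fold. Itga11 at -1.44 lies below the lower dotted line, and the abundant ligands Fn1 (-0.37) and Thbs1 (-0.45) lie under the zero line to the right.

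The integrin genes can also be read as shares of their class, which do not depend on the scale of a library. Of the summed FPKM of the 18 alpha subunits, Itga11 made up 7.79% in PRP and 22.0% in control. Itga5 made up 50.3% and 40.2%, and Itgav 27.3% and 24.9%. The level of Itga5 was 6.46 times that of Itga11 in PRP and 1.83 times in control. Of the summed FPKM of the 8 beta subunits, Itgb1 made up 84.3% in PRP and 79.9% in control, Itgb5 14.7% and 19.3%, and Itgb3 0.467% and 0.361%. Both sums were slightly lower in PRP, at 55.2 against 60.8 FPKM for the alpha subunits and 289.4 against 316.3 FPKM for the beta subunits.

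**Figure D4:**
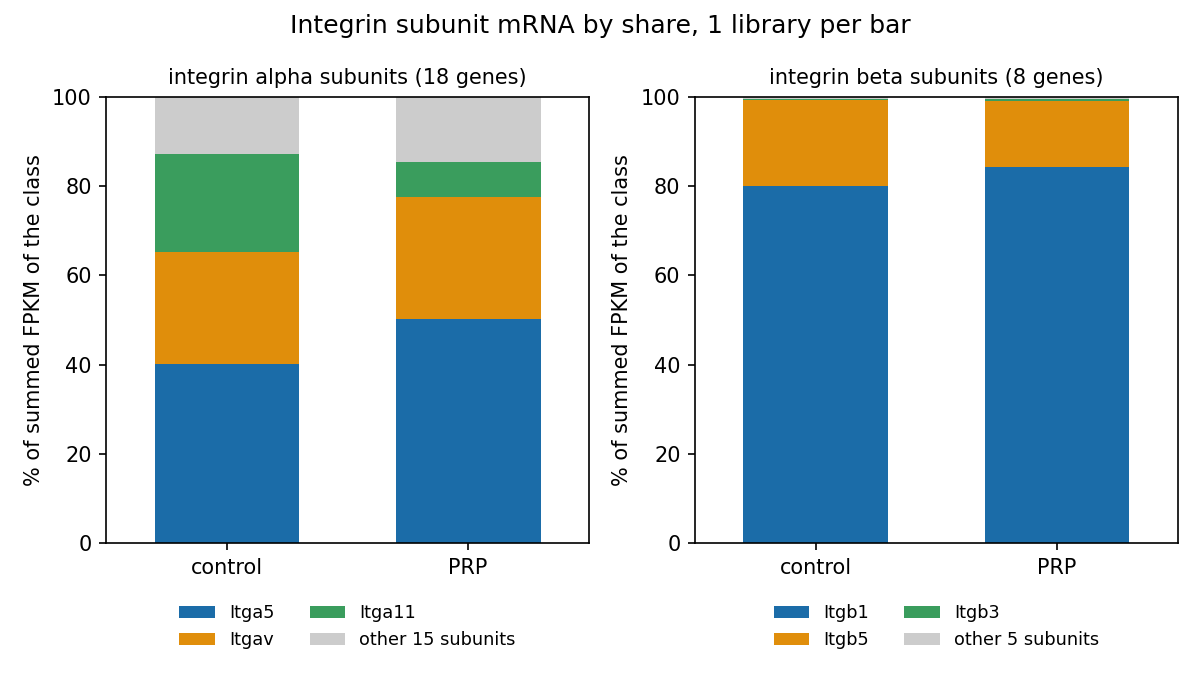
Shares of each class of integrin subunit in its summed FPKM, for 1 library per bar, with the alpha subunits on the left and the beta subunits on the right. The share of Itga11 is 22.0% in control and 7.79% in PRP, and Itgb1 makes up most of the beta class in both libraries.

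The other integrin genes were scarce. Of the 20 subunits that are not among the 6, only Itga3 and Itga9 reached a mean of 1 FPKM, and the intervals of both ratios included 1. Itga3, of a laminin receptor, was at 1.70 and 1.77 FPKM in PRP and control, and Itga9, of a receptor for tenascin, was at 1.31 and 1.46 FPKM. Itga5, Itgav and Itga11 together made up 85.4% of the alpha class in PRP and 87.1% in control, and Itgb1, Itgb5 and Itgb3 made up 99.5% of the beta class in both.

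The other 2 thrombospondins were lower as well. Thbs4 was at 21.3 FPKM in PRP and 29.8 FPKM in control, a ratio of 0.715 (0.666 to 0.768). Comp, which encodes a pentameric thrombospondin of cartilage and tendon, was at 1.29 and 2.87 FPKM, a ratio of 0.450 (0.337 to 0.598). All 5 genes of the family were thus lower with the interval below 1, beside 26.1% of all genes. The median log2 fold change of the family was -0.57.

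The receptors of thrombospondins outside the integrins were split in direction. Of 7 genes, 4 were lower and 3 higher, beside 49.1% and 50.9% of all genes, with a median log2 fold change of -0.30. The interval lay below 1 for 4, above 1 for 1 and included 1 for 2, beside 26.1% of all genes on each side. None of the 7 genes reached 1.5-fold on the log2(FPKM + 1) scale, although the FPKM ratio of the low gene Cacna2d1 was past it. The lower ones included Lrp1, the endocytic receptor that clears thrombospondins (62.8 FPKM in PRP and 90.9 in control, ratio 0.692), Calr, the chaperone calreticulin, which also binds thrombospondin-1 at the cell surface (1289 and 1692 FPKM, ratio 0.762), and Cacna2d1, a calcium channel subunit (1.5 and 2.30 FPKM, ratio 0.650). Cd36 and Cd47, the best known receptors of thrombospondin-1, had 3.15 and 5.08 FPKM in PRP and 3.05 and 4.73 FPKM in control, and both intervals included 1.

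Other integrin ligands differed in both directions. Of 15 genes, 12 reached a mean of 1 FPKM, and 5 of them were higher and 7 lower, with a median log2 fold change of -0.13. The interval lay above 1 for 3, below 1 for 5 and included 1 for 4, beside 26.1% of all genes on each side. At least 1.5-fold lower were 5 genes, beside 4.57% of all genes. Among them were Ccn3, a matricellular protein (4.92 FPKM in PRP and 10.7 in control), Emilin1, an elastic fibre protein (27.9 and 53.7 FPKM), and Fbn1, the fibrillin gene (67.4 and 118.1 FPKM). The other 2 were Spp1 (149.0 and 253.4 FPKM) and Postn (168.5 and 272.9 FPKM). The 2 that were at least 1.5-fold higher, beside 6.15% of all genes, were Ccn1 (64.1 and 40.9 FPKM) and Tnc (167.3 and 108.5 FPKM). These 4 genes are named after their values were seen. Vtn, which encodes the ligand of the Itgb5 receptor, was at 0.0246 and 0.0289 FPKM.

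Genes of the focal adhesion, the complex on the inner side of bound integrins, differed in both directions around a median near 0. Of 33 genes 31 reached a mean of 1 FPKM, 17 higher and 14 lower in PRP. None of them differed by 1.5-fold on the log2(FPKM + 1) scale, and the median log2 fold change was 0.04. Of the 25 with an interval, it lay above 1 for 6, below 1 for 8 and included 1 for 11, beside 26.1% of all genes on each side. The genes furthest from 0 were Tns1, a tensin (-0.52), Lims1, an adaptor of integrin-linked kinase (0.49), and Nedd9, a docking protein (-0.48). Only Nedd9 of these has an interval of its ratio, at 0.676 (0.607 to 0.753), since Tns1 and Lims1 did not come out as whole reads.

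**Figure D5:**
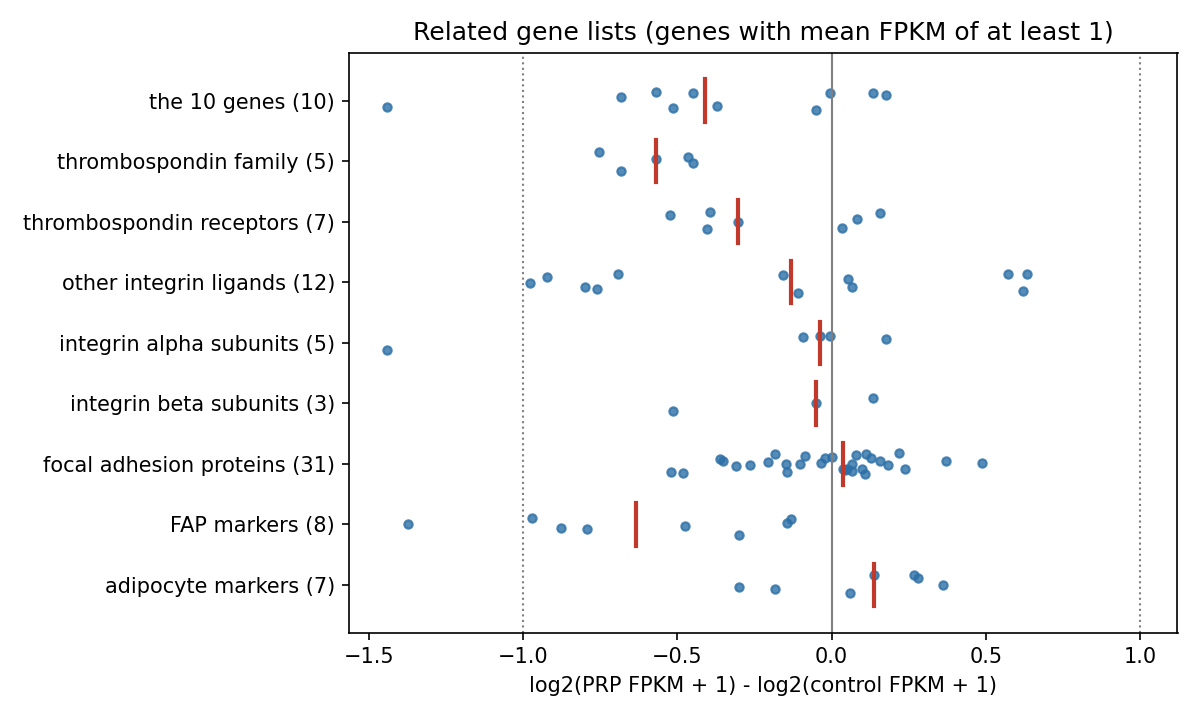
Log2 fold change of each gene with a mean of at least 1 FPKM (blue points) in the 10 genes and in related lists, with the number of genes in brackets, the median as a red bar and dotted lines at 2-fold. All 5 thrombospondin family genes and all 8 FAP markers lie left of 0, beside 49.1% of all genes, while the 31 focal adhesion genes lie on both sides.

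Markers of cell types were set beside these values. All 8 FAP markers with a mean of at least 1 FPKM were lower in PRP, beside 49.1% of all genes, with a median log2 fold change of -0.63. The interval lay below 1 for all 8, beside 26.1% of all genes. The furthest were Dpt (18.8 and 50.2 FPKM), Col3a1 (26.9 and 53.7 FPKM) and Col1a1 (118.6 and 218.7 FPKM), which are matrix genes like the 4 ligands. Adipocyte markers were 5 higher and 2 lower of 7 with such a level, beside 50.9% and 49.1% of all genes, with a median of 0.14. The interval lay above 1 for 2 of them, Pparg and Fabp4 (40.7 and 33.6 FPKM), below 1 for 1, Lpl, and included 1 for 4. Over all genes, 26.1% lay on each side. The summed FPKM of the list was 141.0 in PRP and 146.0 in control. Among these markers were Pparg, the adipogenic transcription factor (8.69 and 6.55 FPKM), Lpl, a lipase (67.4 and 83.3 FPKM), and Cfd, adipsin (2.92 and 2.22 FPKM). The part of FAP or adipocyte markers in the lower ligand and Itga11 values was not tested.

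Platelets carry thrombospondin-1 and the receptor that contains the Itgb3 product, so mouse platelet genes were examined as well. The reads were aligned to mm10, so these values cannot show whether RNA from human PRP was present. Of 12 platelet and megakaryocyte markers, 1 (Gp1bb, 0.872 and 2.26 FPKM) reached a mean of 1 FPKM, 4 were at 0 in both libraries, and their sum was 2.44 FPKM in PRP and 3.77 FPKM in control. Ppbp and Gp9 were at 0 in both. The markers of macrophages and leukocytes summed to 11.3 and 11.2 FPKM, with Ptprc below 0.1 FPKM, and 2 of 10 reached the mean of 1 FPKM, Cd68 (4.56 and 2.31 FPKM) and Lyz2 (4.91 and 7.57 FPKM). Endothelial markers summed to 9.76 and 5.57 FPKM, of which Kdr (4.23 and 1.5 FPKM) and Tek (4.73 and 3.56 FPKM) made up most. Kdr was past 2-fold higher in PRP, at a log2 fold change of 1.06. Pecam1 (0.188 and 0.047 FPKM), Esam (0.156 and 0.0204 FPKM) and Vwf (0.144 and 0.0839 FPKM) were scarce, with ratio intervals above 1. The intervals of Cdh5, Emcn, Erg and Tie1 included 1. Cdh5 was below 0.1 FPKM in both libraries and Cldn5 was at 0. Of the 10 myogenic markers 9 were found, Pax7 and Myog were at 0 in both libraries, and Acta1 (15.1 and 11.1 FPKM), Des (2.91 and 3.39 FPKM) and Ckm (3.56 and 3.72 FPKM) were the 3 with a mean of at least 1 FPKM. The part of these markers in the values of the 10 genes was not tested.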

How the data were processed

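RNA-seq of 2 libraries was analysed, 1 PRP and 1 control. Per the labels and the study's methods, RNA was extracted with TRIzol, libraries were made with a stranded mRNA kit, and reads were trimmed with fastp 0.23.4, aligned to mm10 with STAR 2.5.3a and counted with featureCounts 1.5.1. The deposited values are FPKM as the authors computed them. How counts became FPKM, the annotation release and the strand setting are not given in the sources used here.

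Gene lengths and coordinates were taken from GENCODE M21, which matched 41492 of 44291 genes (93.7%). Reads recovered from FPKM and length came out whole within 0.001 in both libraries for 26406 of 28160 genes, and for all 10 genes described. Even read numbers were 79.3% and 80.3% of genes with up to 8 reads, so intervals used reads divided by 2. They take no account of PCR duplicates. Log2 fold changes used a pseudocount of 1, which understates changes of low genes, and a mean FPKM of at least 1. Named were the 10 genes, the 3 of each list with the largest absolute change and every listed gene past 2-fold, and others as marker checks or background. The genes and lists were chosen with earlier results of these data known. Alternatives were a pseudocount of 0.1 or 5, a filter of 5 FPKM or none, 3 rescalings, and intervals at 99% or on single reads. Protein sequences were not analysed here. Python 3.11.15, NumPy 2.4.6, pandas 2.3.3 and SciPy 1.17.1 were used, and the procedures were tested on simulated data.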

Additional observations from a re-analysis of the deposited data

How the results depend on the processing

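Each of the 10 genes kept the sign of its log2 fold change under the 3 rescalings. These all lowered the PRP values slightly, so only a gene higher in PRP could have changed sign. A pseudocount or a filter cannot change a sign, so those alternatives say nothing about direction. Itgb3 had no value under the filter at 5 FPKM. The median log2 fold change of the 10 genes was -0.41, and it was -0.39 with a pseudocount of 5, -0.45 with the filter at 5 FPKM (9 genes), -0.43 with the libraries set to a common sum and -0.44 when mitochondrial genes and the 50 most abundant genes were left out of that sum. With a pseudocount of 5, 0 genes reached 2-fold, as Itga11 was at -0.98, and 1 reached 1.5-fold, as Thbs3 was at -0.41. After rescaling to a common sum, or without mitochondrial and abundant genes, Thbs2 also reached 1.5-fold, which made 3 genes. A larger pseudocount shrinks the log2 fold change of low genes by construction. The genes whose interval lay on 1 side of 1 numbered 7 lower and 1 higher under all 5 alternatives for the intervals. The rescalings moved all genes by -0.03 to -0.01 on the log2 scale. No paired analysis was possible because there was 1 library per group, and for the same reason no library could be left out. Depth limits Itgb3 most, with 320 and 230 reads.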

Other observations

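Among the 18 integrin subunits with a mean below 1 FPKM, 10 were higher and 8 lower in PRP. Of the 16 with whole reads, the interval of the ratio lay above 1 for 3, below 1 for 0 and included 1 for 13. Among genes with a mean of at least 1 FPKM, 26.1% lay on each side, and the share among scarcer genes was not computed. The 3 are named after their values were seen. Itgb7, a beta subunit of lymphocyte receptors, had 65 reads in PRP and 18 in control, a ratio of 3.07 (1.44 to 7.31). Itga1, of a collagen receptor like that of Itga11, had 462 and 300 reads, a ratio of 1.31 (1.06 to 1.62). Itga2b, of the platelet fibrinogen receptor, had 124 and 68 reads, a ratio of 1.55 (1.01 to 2.43). All 3 were below 1 FPKM in both libraries, and there is no replicate check of these values.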
